A study of Mus musculus with 12 samples.

Results

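The genes described here are 52 components of mitosis, from the cyclins that start it to the proteins that divide the cell. They were taken by symbol from the 24770 gene symbols of the expression table: 7 genes of the cyclin-CDK1 engine, 2 CDK1-activating phosphatases, 5 mitotic kinases and their activators, 12 kinesins, 9 spindle assembly and microtubule-binding proteins, 6 proteins of the midzone and cytokinesis, 2 of sister chromatid separation, 7 of chromosome structure and 2 transcription factors. All 52 were in the table and all 52 passed the filter on low values, which kept 12311 genes with at least 1 FPKM (fragment counts corrected for library size and gene length) in at least 3 of the 12 libraries. The cells were GC-2, a mouse germ line-derived cell line that the labels call type B spermatogonia and wild type. As background, this line was immortalised with the SV40 large T antigen together with a mutant p53, proteins that act on the checkpoints of the cell cycle. The 4 groups, of 3 libraries each, were DMSO (the solvent control) under normoxia, DMSO under hypoxia (1% O2), 1 µM MLN4924 under normoxia and 1 µM MLN4924 under hypoxia, all for 24 h and all in serum-containing medium. The submitters call the 3 libraries of a group biological replicates. Whether MLN4924 changes how the line responds to low oxygen is the question that the series title raises, there for apoptosis. Of 11 markers of spermatogonia and germ cells, 7 were matched and only Gfra1 and Uchl1 reached 1 FPKM in 3 libraries, with Ddx4 and Kit at or near 0, while 5 of 7 fibroblast and peritubular markers did. The summed germ cell markers ran from 12.04 to 26.1 FPKM over the 12 libraries, and the summed fibroblast and peritubular markers, led by Col1a1, Col1a2 and Vim, ran from 1647 to 2637 FPKM. Within these, the fibroblast sum was 1958 to 1966 FPKM in DMSO normoxia, 2529 to 2637 in DMSO hypoxia, 1647 to 1675 in MLN4924 normoxia and 2042 to 2097 in MLN4924 hypoxia. The summed Sertoli markers were 12.8 to 15.5 FPKM in DMSO normoxia, 17.97 to 23.02 in DMSO hypoxia, 6.46 to 9.75 in MLN4924 normoxia and 9.83 to 13.5 in MLN4924 hypoxia. The part of these shifts in the results below was not tested.

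Entry into mitosis is driven by CDK1 bound to cyclin A or cyclin B, switched on by CDC25 phosphatases and amplified by Polo-like and Aurora kinases. Kinesins and microtubule-binding proteins then build the spindle, condensins and topoisomerase II shape the chromosomes, separase cuts the sister chromatids apart and the midzone proteins guide cytokinesis. Most of these genes are transcribed in G2 and mitosis under the MuvB complex with B-MYB (Mybl2) and FOXM1, which act largely through a short promoter element called the CHR. MLN4924 (pevonedistat) blocks the enzyme that activates the ubiquitin-like protein NEDD8. Cullin-RING ubiquitin ligases, which degrade many cell cycle regulators, need NEDD8 for their activity. In RNA from whole cultures, fewer cells in mitosis and less RNA per mitotic cell cannot be told apart.

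More of these genes rose than fell with hypoxia in DMSO, and more fell than rose with hypoxia in MLN4924. In DMSO, 27 of the 52 genes rose and 0 fell, against 13.8% of all tested genes that rose and 19.4% that fell. In MLN4924, 1 rose and 16 fell, against 11.7% and 16.5% of all tested genes. "Rose" and "fell" are used for an adjusted p under 0.05 in limma's moderated test on log2(FPKM + 1), adjusted over all tested genes. The median log2 fold change of the 52 genes was 0.26 for hypoxia in DMSO, where the median of all tested genes was -0.08. With MLN4924 the median for hypoxia was -0.22, where that of all tested genes was -0.05. The interaction, which is the hypoxia effect in MLN4924 minus that in DMSO, was negative past the threshold for 21 of the 52 genes and positive for 0, against 0.926% and 0.958% of all tested genes. Its median was -0.52 over the 52 genes and 0.02 over all tested genes. At an unadjusted p under 0.05 in limma, 29 of the 52 genes were higher and 2 lower with hypoxia in DMSO, against 18% and 26.1% of all tested genes. At that threshold 2 were higher and 23 lower with hypoxia in MLN4924 (16.3% and 22.4% of all tested genes), and the interaction was positive for 0 and negative for 36 (7.68% and 6.92%).

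The effect of MLN4924 also differed with oxygen. In normoxia 20 of the 52 genes were higher with MLN4924 and 0 were lower, against 9.33% and 10.7% of all tested genes. In hypoxia 1 gene was higher with MLN4924 and 25 were lower, against 12.2% and 13.3%. At an unadjusted p under 0.05, 27 were higher and 0 lower in normoxia, against 14.7% and 17.6% of all tested genes, and 1 was higher and 29 lower in hypoxia, against 17.9% and 19.9%. The medians were 0.25 and -0.28, with -0.03 and -0.01 over all tested genes. These contrasts share their groups with the hypoxia contrasts, so the 4 sets of counts describe 1 pattern over 4 group levels and are not independent of each other. Set against the DMSO normoxia mean, the median gene of the 52 stood at 0.24, 0.28 and 0.35 (log2) in the 3 DMSO hypoxia libraries and at 0.26, 0.22 and 0.22 in the MLN4924 normoxia libraries. In the MLN4924 hypoxia libraries the same median was 0.011, -0.0021 and 0.0059, close to the DMSO normoxia mean in all 3.

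**Figure D1:**
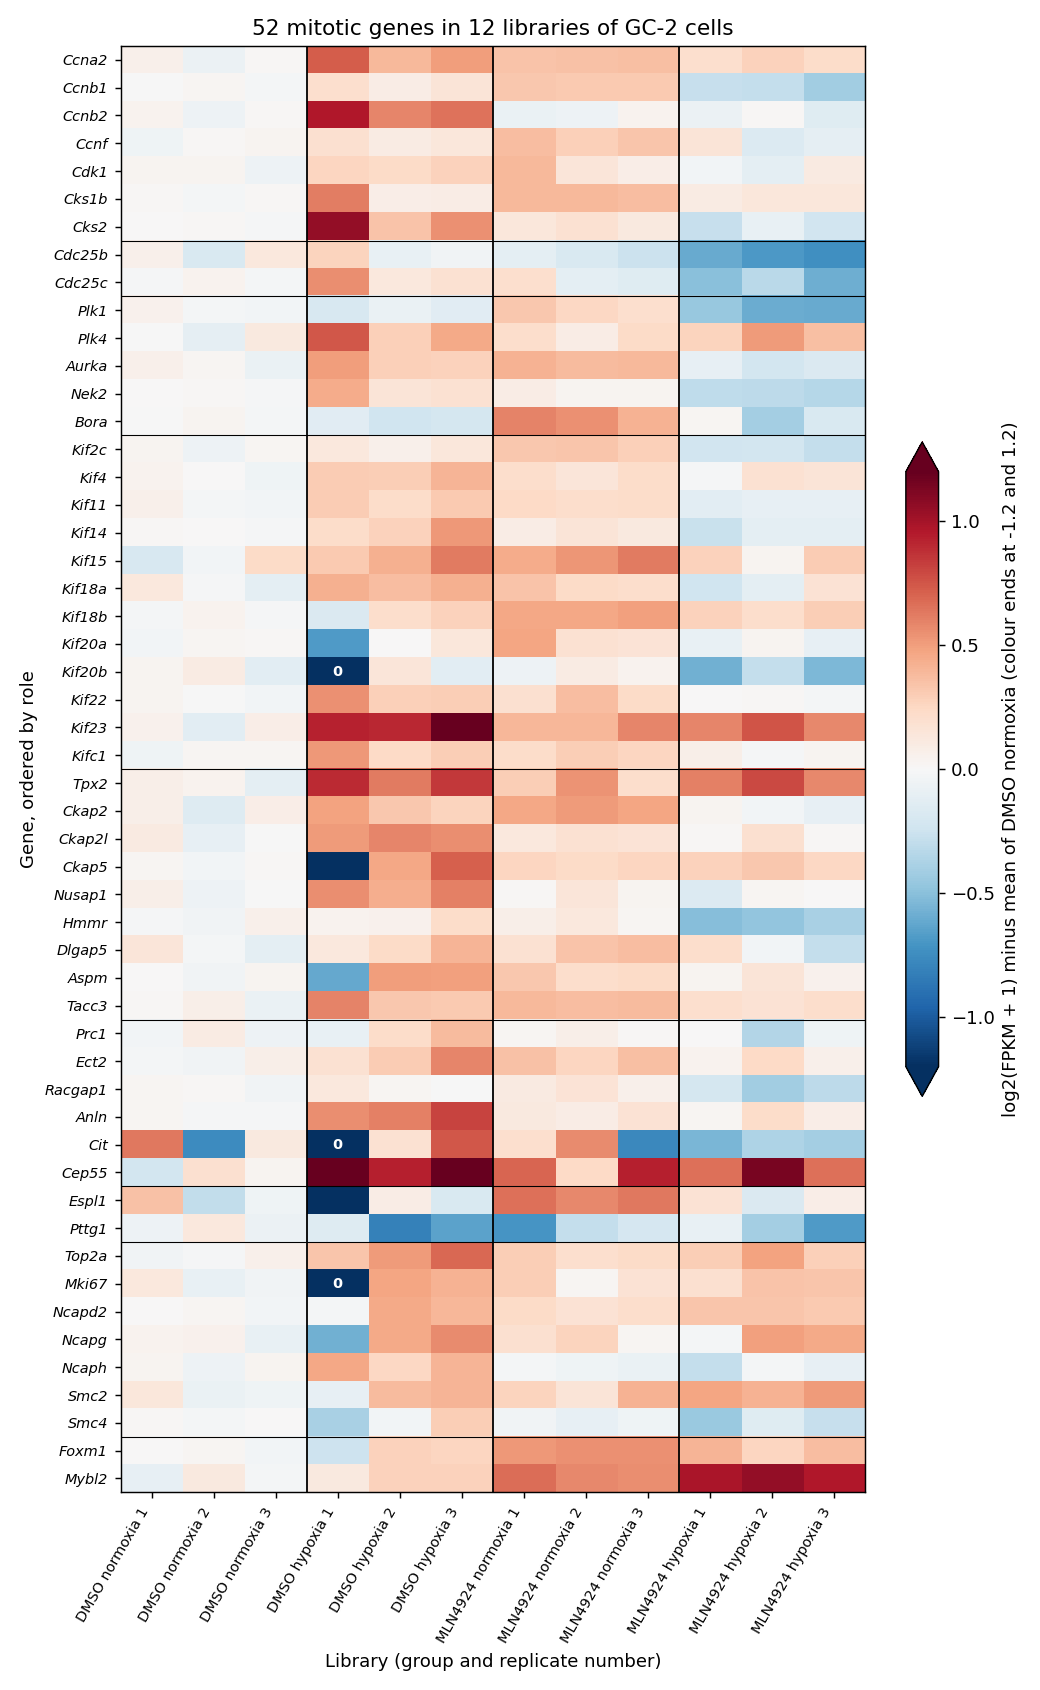
Each row is 1 of the 52 genes, ordered by role, and each column is 1 of the 12 libraries; colour gives log2(FPKM + 1) minus the mean of the DMSO normoxia libraries, and a white 0 marks a gene listed at 0. Most rows are red in DMSO hypoxia and in MLN4924 normoxia and pale or blue in MLN4924 hypoxia; DMSO hypoxia replicate 1 differs from replicates 2 and 3 in several rows.

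Signs of the 2 hypoxia effects differed for 36 of the 52 genes, against 25.5% of all tested genes. Of these, 33 had a positive log2 fold change in DMSO and a negative one in MLN4924, and 3 the reverse. In a further 9 genes both were positive and in 7 both were negative. Without DMSO hypoxia replicate 1 the signs differed for 37 genes, against 22.6% of all tested genes. Then 36 were positive in DMSO and negative in MLN4924 and 1 the reverse, with 11 positive in both and 4 negative in both. The stricter count, past the threshold up in DMSO and past it down in MLN4924, held 8 genes: Ccnb1, Aurka, Nek2, Kif11, Kif14, Kif22, Kifc1 and Ckap2. All 8 also had an interaction past the threshold, whose negative sign follows from the 2 opposite effects and is not separate evidence. Over all tested genes, 0.309% were past the threshold in opposite directions. Another 17 of the 52 genes passed in neither hypoxia contrast, and 3 did so without DMSO hypoxia replicate 1. The raw levels show the same: all 3 DMSO hypoxia libraries lay above all 3 DMSO normoxia libraries for 31 genes (18.3% of all tested genes) and below them for 3 (26.9%), with 18 overlapping. In MLN4924, the hypoxia libraries lay below the normoxia libraries for 31 genes (30.7%) and above them for 4 (22.6%). MLN4924 normoxia lay above DMSO normoxia for 38 genes (22.2%) and below for 2 (26.2%). MLN4924 hypoxia lay below DMSO hypoxia for 27 genes (19.9%) and above for 2 (18.1%).

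**Figure D2:**
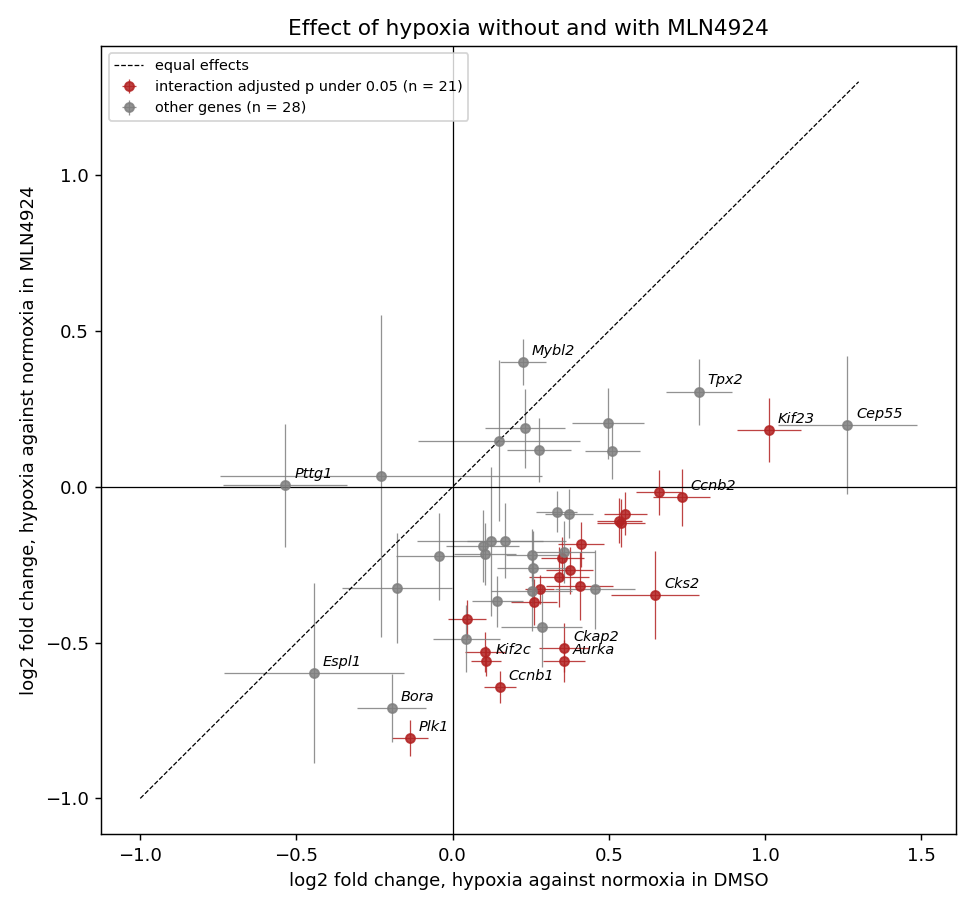
Each point is a gene, placed by its log2 fold change for hypoxia in DMSO (x axis) and in MLN4924 (y axis), with bars of 1 SE from the limma fit; the 3 genes listed at 0 in a library are not drawn. The 21 genes with an interaction past the threshold, in red, all lie below the dashed line of equal effects, and most are at the lower right (up in DMSO, down in MLN4924).

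One library of the DMSO hypoxia group, replicate 1, stood apart. Its mean Spearman correlation with the others of its group was 0.926 where every library outside that group had at least 0.977, its total of 633597 FPKM was above the 530452 to 557779 FPKM of the others, and 39 genes above 5 FPKM in every other library were listed at 0 in it. Mki67 and Kif20b, 2 long members of the set, were among these, and Cit, also long but at 0.70 to 3.88 FPKM in the other libraries, was listed at 0 there too. How far it lay from its group mean went with the length of the transcript, with Spearman's rho of -0.51 over tested genes and -0.79 over the 52, given as descriptions across genes. Among the 13 shortest of the 52 (692 to 2726 nt) replicate 1 was above the mean of replicates 2 and 3 by a median of 0.25 on the log2 scale, and among the 13 longest (4652 to 10061 nt) the median was -0.51, with 12 of 13 below. The cause was not tested. Without this library 36 of the 52 genes rose with hypoxia in DMSO and 1, Pttg1, fell, while 14.8% and 23.9% of all tested genes did so. The same omission left 3 that rose and 27 that fell with hypoxia in MLN4924 (17.9% and 24.7% of all tested genes), 33 negative and 0 positive interactions (2.21% and 3.3% of all tested genes), and 15 genes past the threshold in opposite directions (0.707%). Those 15 were the 8 named above apart from Ccnb1, joined by Cks1b, Cks2, Kif15, Kif18a, Kif18b, Aspm, Tacc3 and Foxm1. It also left 29 genes higher and 0 lower with MLN4924 in normoxia (16% and 18.2%), and 1 higher and 34 lower with MLN4924 in hypoxia (16.8% and 15.7%). The contrasts of hypoxia in MLN4924 and of MLN4924 in normoxia do not contain the library; there the fold changes stayed as they were and the shared estimate of spread shrank.

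**Figure D3:**
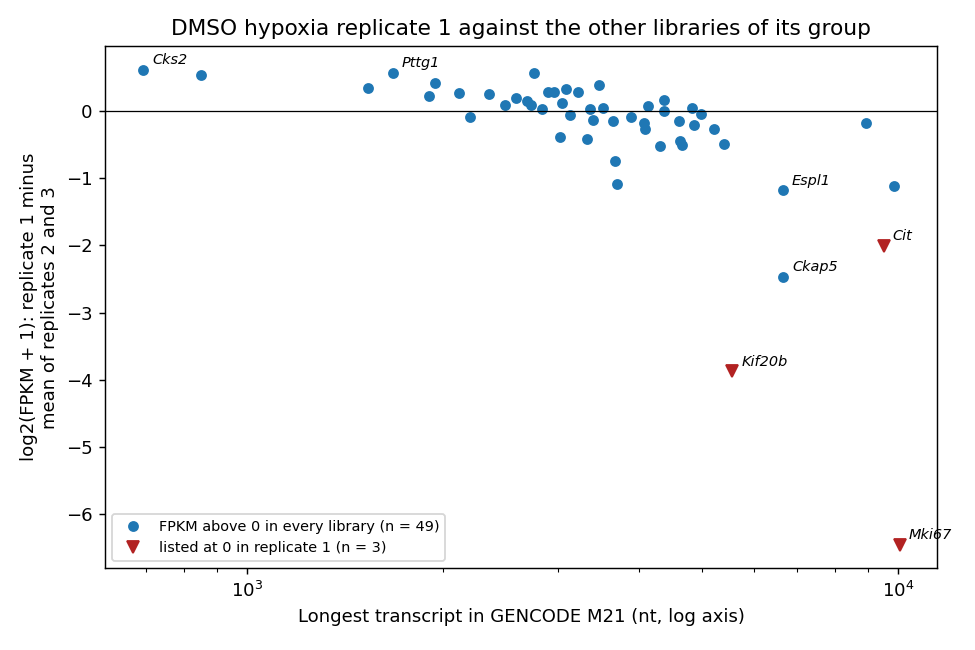
For each of the 52 genes, the x axis gives the length of its longest annotated transcript (nt, log axis) and the y axis log2(FPKM + 1) in DMSO hypoxia replicate 1 minus the mean of replicates 2 and 3. Short transcripts such as Cks2 and Pttg1 lie above 0 and long ones below it, down to the 3 genes listed at 0 (triangles).

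The counts also moved when single libraries of other groups were left out, which leaves that group with 2 libraries. The number of negative interactions was 12 without MLN4924 hypoxia replicate 3 or without MLN4924 normoxia replicate 3, and 14 without DMSO normoxia replicate 1, the omissions besides DMSO hypoxia replicate 1 that moved it by 1.5 times or more. Genes higher with MLN4924 in normoxia numbered 13 without DMSO normoxia replicate 1 or MLN4924 normoxia replicate 1. Genes past the threshold in opposite directions numbered 4 or 5 without DMSO normoxia replicate 1 or 3, MLN4924 normoxia replicate 1 or 2, or MLN4924 hypoxia replicate 1 or 2, and 6 to 8 without any other library but DMSO hypoxia replicate 1. Genes that rose with hypoxia in MLN4924 numbered 2 without DMSO hypoxia replicate 2 or MLN4924 normoxia replicate 2. Calls over all 12311 tested genes moved as well. In the order of the omissions just named, negative interactions numbered 55, 48 and 61, against 114 with all libraries. Genes higher with MLN4924 in normoxia numbered 794 and 774, against 1149. Opposite calls were 0.171% to 0.203%, then 0.187% to 0.374%, and genes that rose with hypoxia in MLN4924 numbered 1506 and 1123. The signs of the median effects did not change under any omission. Of the 21 genes with a negative interaction, 11 passed in every one of the alternative settings tried: Ccnb1, Plk1, Aurka, Nek2, Kif2c, Kif11, Ckap2, Ckap2l, Nusap1, Hmmr and Anln.

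The letters of the CHR and of the CCAAT box were in most of the promoters that could be read. Of the 52 genes, 44 matched a RefSeq promoter on GRCm38.p6, a window from 250 bases before to 50 after the annotated start. Ccna2, Cdc25c, Bora, Kif20a, Tpx2, Dlgap5, Smc4 and Foxm1 did not. Only the first listed start of each symbol was read, so letters at another start of a gene would be missed. The letters searched on both strands were TTTGAA for the CHR, CCAAT for the CCAAT box and TTCCCGC for an E2F site, and none of the 3 strings contains another. TTTGAA was in 32 of the 44 windows (72.7%) and in 18.1% of all 27025 promoters of the same length. Within 60 bases before to 20 after the start it was in 21 of the 44 (47.7%) and in 4.44% of all promoters. CCAAT was in 31 of the 44 (70.5%), against 37.9% of all promoters, and both were in 27 (61.4%), against 7.12%. TTCCCGC was in 2 of the 44 (4.55%), against 4.66%. The windows below, from 110 bases before to 50 after the start, are those of the 6 genes with the smallest interaction p, then 2 genes with strong hypoxia responses in DMSO (Ccnb2, Cks2) and Mybl2, which moved otherwise. They are written 5′ to 3′ on the gene's strand, with TTTGAA or its reverse complement and CCAAT or its reverse complement in capitals. On GRCm38.p6 they lie at chr13:100786437-100786596 (minus strand) for Ccnb1, chr7:122159325-122159484 (plus strand) for Plk1, chr2:172370521-172370680 (minus strand) for Aurka, chr4:117178723-117178882 (minus strand) for Kif2c, chr19:37376272-37376431 (plus strand) for Kif11, chr8:22185770-22185929 (minus strand) for Ckap2, chr9:70421505-70421664 (minus strand) for Ccnb2, chr13:51645122-51645281 (plus strand) for Cks2 and chr2:163054525-163054684 (plus strand) for Mybl2.
Ccnb1: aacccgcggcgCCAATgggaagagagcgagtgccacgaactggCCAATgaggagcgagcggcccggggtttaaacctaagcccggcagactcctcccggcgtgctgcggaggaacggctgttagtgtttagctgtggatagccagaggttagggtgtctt
Plk1: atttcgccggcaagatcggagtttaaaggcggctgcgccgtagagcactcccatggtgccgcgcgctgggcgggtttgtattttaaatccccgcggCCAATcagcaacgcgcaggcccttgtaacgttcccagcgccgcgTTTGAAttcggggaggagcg
Aurka: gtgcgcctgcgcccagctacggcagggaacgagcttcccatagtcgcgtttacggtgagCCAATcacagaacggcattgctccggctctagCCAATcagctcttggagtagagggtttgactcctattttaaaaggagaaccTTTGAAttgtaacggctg
Kif2c: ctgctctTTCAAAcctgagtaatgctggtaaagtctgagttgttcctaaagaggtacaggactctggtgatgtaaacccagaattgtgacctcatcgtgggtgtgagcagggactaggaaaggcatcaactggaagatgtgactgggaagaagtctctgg
Kif11: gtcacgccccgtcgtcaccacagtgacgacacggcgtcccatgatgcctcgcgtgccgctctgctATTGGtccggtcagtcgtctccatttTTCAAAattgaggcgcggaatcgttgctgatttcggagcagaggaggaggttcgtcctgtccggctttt
Ckap2: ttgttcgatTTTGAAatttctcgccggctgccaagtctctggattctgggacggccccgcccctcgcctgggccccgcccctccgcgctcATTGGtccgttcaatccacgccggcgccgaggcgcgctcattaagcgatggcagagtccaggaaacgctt
Ccnb2: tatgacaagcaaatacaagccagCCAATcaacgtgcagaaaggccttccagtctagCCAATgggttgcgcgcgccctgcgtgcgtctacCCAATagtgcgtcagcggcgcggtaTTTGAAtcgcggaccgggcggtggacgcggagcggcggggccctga
Cks2: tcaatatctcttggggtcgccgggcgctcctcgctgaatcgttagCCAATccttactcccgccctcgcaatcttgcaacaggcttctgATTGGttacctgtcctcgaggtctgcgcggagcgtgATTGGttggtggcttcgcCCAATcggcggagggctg
Mybl2: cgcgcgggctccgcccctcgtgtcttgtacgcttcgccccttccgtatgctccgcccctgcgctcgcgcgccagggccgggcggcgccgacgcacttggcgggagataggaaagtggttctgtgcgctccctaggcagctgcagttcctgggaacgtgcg
Ccnb1 and Cks2 have CCAAT letters but no TTTGAA in the lines shown, Kif2c has only the latter, and Mybl2 has neither. The TTTGAA letters of Plk1 begin 30 bases downstream of the annotated start base, those of Aurka 32 and those of Ccnb2 4. The reverse letters of Kif11 begin at -19. Among the 44 genes the letters did not sort the interaction: TTTGAA was in 14 of the 20 windows of genes with a negative interaction past the threshold and in 18 of the 24 others. The median interaction was -0.54 with TTTGAA and -0.56 without it. These matches describe letters, not bound sites. Only TTTGAA was searched for the CHR, so a CHR with other letters would be missed, in Ccnb1 as in the other genes.

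Among the 7 genes of the cyclin-CDK1 engine, 5 rose with hypoxia in DMSO, 2 fell with hypoxia in MLN4924, and 4 had a negative interaction. Of all tested genes, 13.8%, 16.5% and 0.926% did so. None of the 7 moved the other way in any of the 3, nor at an unadjusted p under 0.05. With DMSO hypoxia replicate 1 left out the 3 counts were 5, 4 and 6 (14.8%, 24.7% and 2.21% of all tested genes). The medians for hypoxia were 0.26 in DMSO and -0.26 in MLN4924. Cyclin B1 (Ccnb1), which activates CDK1 for mitotic entry, measured 82.2, 83.9 and 81.3 FPKM in DMSO normoxia, 95.1, 87.9 and 92.2 in DMSO hypoxia, 103, 103 and 103 in MLN4924 normoxia and 68.1, 67.5 and 61.4 in MLN4924 hypoxia, here and below for replicates 1 to 3 in that order. No groups overlapped: MLN4924 normoxia was highest, then DMSO hypoxia, then DMSO normoxia, and MLN4924 hypoxia was lowest. On the log2(FPKM + 1) scale hypoxia changed it by 0.15 ± 0.05 (adjusted p = 0.0457) in DMSO and by -0.64 ± 0.05 (adjusted p = 1.35e-05) in MLN4924, each ± the SE of the fit, with n = 3 per group. The interaction was -0.79 ± 0.07 (adjusted p = 0.00146). The rise in DMSO was small and was lost without any 1 of 10 libraries, all but DMSO hypoxia replicate 2 and MLN4924 hypoxia replicate 3 (highest adjusted p = 0.125); its fall in MLN4924 and its interaction passed in every alternative.

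Cyclin B2 (Ccnb2), the Golgi-associated B-type cyclin, measured 98.4, 91.5 and 96.5 FPKM in DMSO normoxia, 187, 144 and 151 in DMSO hypoxia, 90.0, 91.6 and 98.4 in MLN4924 normoxia and 90.8, 96.6 and 86.1 in MLN4924 hypoxia. The DMSO hypoxia libraries stood above all 9 others, which shared 1 range from 86.1 to 98.4 FPKM. Ccnb2 rose by 0.73 ± 0.09 (adjusted p = 1.94e-04) with hypoxia in DMSO, while the difference in MLN4924 was -0.03 ± 0.09 (adjusted p = 0.822). Cks2, a small CDK1-binding subunit that helps it recognise phosphorylated substrates, measured 160.3, 162 and 158 FPKM in DMSO normoxia, 334, 204 and 234 in DMSO hypoxia, 176, 182 and 174 in MLN4924 normoxia and 132, 150.3 and 136 in MLN4924 hypoxia. Again DMSO hypoxia was the highest group, with replicate 1 far above the others of that group, and MLN4924 hypoxia the lowest. The log2 difference for hypoxia was 0.65 ± 0.14 (adjusted p = 0.00572) in DMSO and -0.35 ± 0.14 (adjusted p = 0.0952) in MLN4924, or -0.35 (adjusted p = 0.00103) without DMSO hypoxia replicate 1. The interactions were -0.77 ± 0.13 (adjusted p = 0.0155) for Ccnb2 and -0.995 ± 0.20 (adjusted p = 0.0365) for Cks2. The call for Ccnb2 was lost without MLN4924 normoxia replicate 3 or MLN4924 hypoxia replicate 3 (highest adjusted p = 0.0543), and that for Cks2 was lost without any 1 of 10 libraries, all but DMSO hypoxia replicates 1 and 2 (highest adjusted p = 0.0966).

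Cks1b, the other CDK subunit of this kind, had the highest level of the engine per transcript length. It measured 207, 201 and 206 FPKM in DMSO normoxia, 314, 216 and 217 in DMSO hypoxia, 269, 268 and 265 in MLN4924 normoxia and 219, 225 and 225 in MLN4924 hypoxia. MLN4924 normoxia was above DMSO normoxia without overlap, and in DMSO hypoxia replicate 1 was above MLN4924 normoxia and replicates 2 and 3 were below it. It rose with MLN4924 in normoxia by 0.38 ± 0.12 (adjusted p = 0.0427), a call lost without any 1 of 9 libraries, all but DMSO hypoxia replicates 1, 2 and 3 (highest adjusted p = 0.114), and passed in no other contrast over all libraries. Once DMSO hypoxia replicate 1 was left out, Cks1b differed by 0.08 (adjusted p = 0.0317) for hypoxia in DMSO and by -0.26 (adjusted p = 2.13e-05) in MLN4924, with an interaction of -0.34 (adjusted p = 8.84e-04). Cyclin A2 (Ccna2), which carries CDK activity from S phase into mitosis, rose with hypoxia in DMSO by 0.54 ± 0.08 (adjusted p = 4.76e-04) and had an interaction of -0.65 ± 0.11 (adjusted p = 0.0155), lost without MLN4924 normoxia replicate 3 or MLN4924 hypoxia replicate 3 (highest adjusted p = 0.0524). The kinase Cdk1 itself ranged from 143 to 204 FPKM over the 12 libraries. Its log2 difference for hypoxia was 0.26 ± 0.08 (adjusted p = 0.0376) in DMSO, a call lost without DMSO normoxia replicates 1, 2 or 3, DMSO hypoxia replicates 2 or 3 or MLN4924 hypoxia replicate 1 (highest adjusted p = 0.118), and -0.22 ± 0.08 (adjusted p = 0.0745) in MLN4924. Cyclin F (Ccnf), the substrate receptor of an SCF ubiquitin ligase, fell with hypoxia in MLN4924 (log2 difference -0.37 ± 0.08, adjusted p = 0.00765), and the difference in DMSO was 0.14 ± 0.08 (adjusted p = 0.204).

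**Figure D4:**
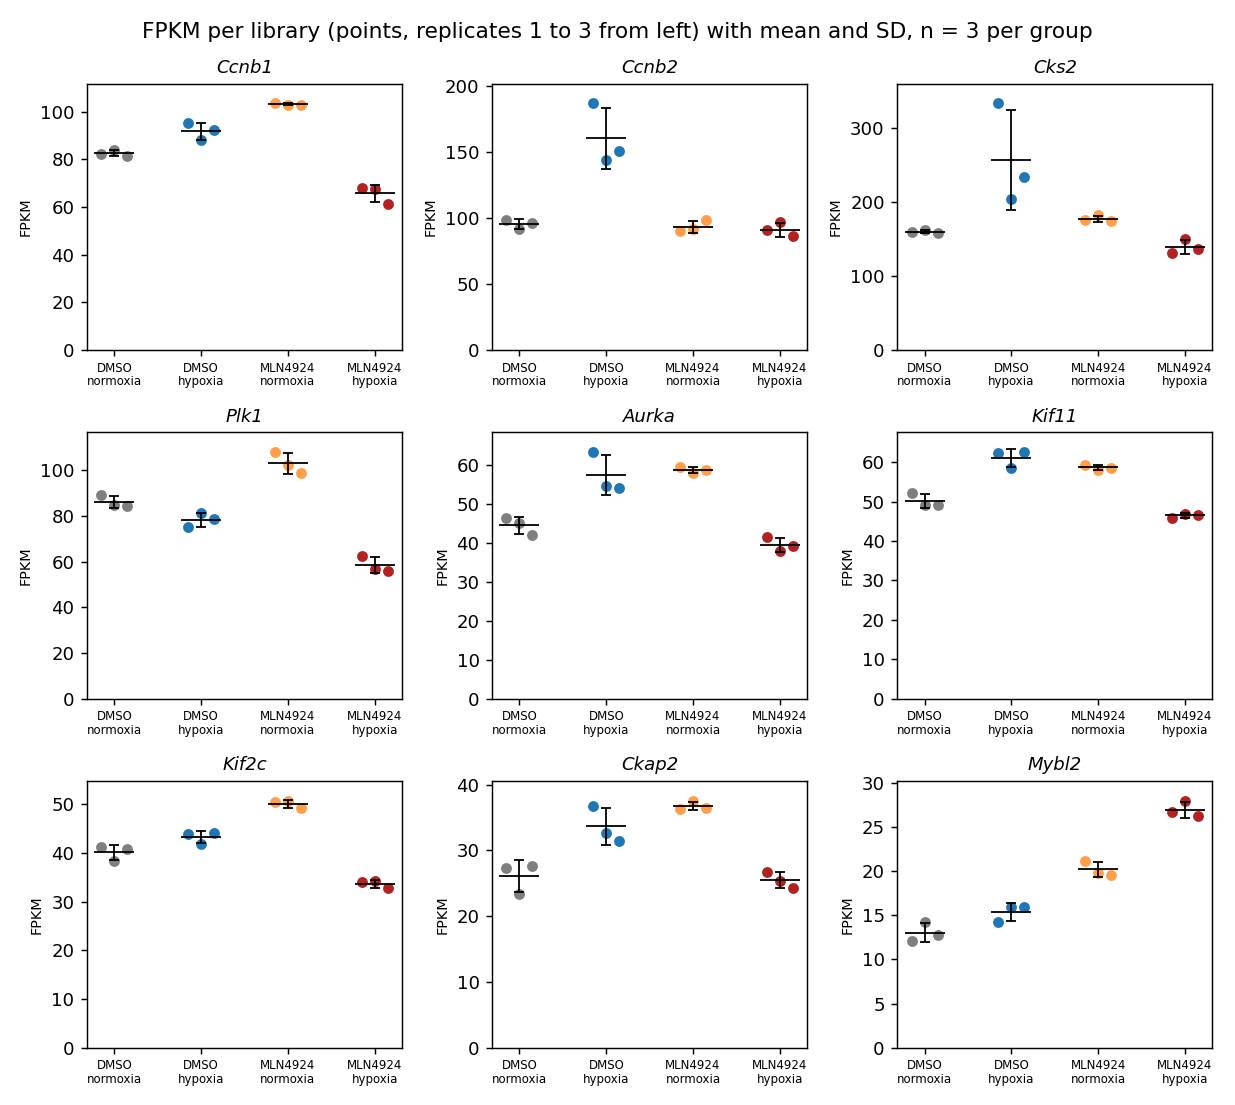
FPKM (y axes from 0, a scale for each gene) of 9 genes in the 4 groups; points are libraries, replicates 1 to 3 from left, and bars are the mean and SD of 3. In Ccnb1, Plk1, Aurka, Kif11, Kif2c and Ckap2 the MLN4924 hypoxia libraries lie below all the MLN4924 normoxia and DMSO hypoxia libraries, while Mybl2 is highest in MLN4924 hypoxia.

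Both CDC25 phosphatases, which remove the inhibitory phosphates from CDK1, were lowest in MLN4924 hypoxia, and neither rose with hypoxia in DMSO. Cdc25b measured 22.4, 18.8 and 23.5 FPKM in DMSO normoxia, 25.9, 20.1 and 20.9 in DMSO hypoxia, 19.7, 18.8 and 17.7 in MLN4924 normoxia and 13.8, 12.9 and 12.5 in MLN4924 hypoxia. All 3 MLN4924 hypoxia libraries were below the other 9, and DMSO normoxia overlapped both remaining groups. Cdc25c measured 12.2, 12.7 and 12.1 FPKM in DMSO normoxia, 18.5, 13.5 and 14.1 in DMSO hypoxia, 14.2, 11.3 and 11.02 in MLN4924 normoxia and 8.38, 9.65 and 7.85 in MLN4924 hypoxia. Its MLN4924 hypoxia libraries were likewise below the other 9. For hypoxia in MLN4924 the log2 differences were -0.49 ± 0.11 (adjusted p = 0.00712) for Cdc25b and -0.45 ± 0.13 (adjusted p = 0.0262) for Cdc25c, and for MLN4924 in hypoxia they were -0.72 ± 0.11 (adjusted p = 9.04e-04) and -0.76 ± 0.13 (adjusted p = 0.00207). The call of Cdc25c for hypoxia in MLN4924 was lost without MLN4924 normoxia replicate 1 or MLN4924 hypoxia replicates 1 or 3 (highest adjusted p = 0.103). Neither interaction passed (-0.53 and -0.73, adjusted p = 0.131 and 0.0853), and with DMSO hypoxia replicate 1 left out that of Cdc25c was -0.60 (adjusted p = 0.0473).

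Of the 5 kinases and activators, 3 rose with hypoxia in DMSO (Plk4, Aurka, Nek2), 4 fell with hypoxia in MLN4924 (Plk1, Aurka, Nek2, Bora) and 3 had a negative interaction (Plk1, Aurka, Nek2). Of all tested genes, 13.8%, 16.5% and 0.926% did so. Plk1, the Polo-like kinase that feeds back on CDK1 activation and acts at centrosomes and kinetochores, measured 89.3, 84.96 and 84.5 FPKM in DMSO normoxia, 75.1, 81.5 and 78.5 in DMSO hypoxia, 108, 102 and 99.04 in MLN4924 normoxia and 62.7, 56.8 and 56.2 in MLN4924 hypoxia. It was highest in MLN4924 normoxia and lowest in MLN4924 hypoxia, with no overlap between any of the 4 groups. Plk1 fell (log2 difference -0.81 ± 0.06, adjusted p = 6.68e-06) with hypoxia in MLN4924, the largest fall of the 52, and its difference in DMSO was -0.14 ± 0.06 (adjusted p = 0.0997). It rose with MLN4924 in normoxia by 0.25 ± 0.06 (adjusted p = 0.0121), a call lost without DMSO normoxia replicate 3 or MLN4924 normoxia replicate 1 (highest adjusted p = 0.0561).

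Aurora A (Aurka), which matures centrosomes and activates Plk1, measured 46.4, 45.2 and 42.1 FPKM in DMSO normoxia, 63.4, 54.6 and 54.2 in DMSO hypoxia, 59.7, 58.1 and 58.7 in MLN4924 normoxia and 41.6, 38.1 and 39.2 in MLN4924 hypoxia. The MLN4924 hypoxia libraries were below the other 9, the DMSO normoxia libraries came next, and the remaining groups overlapped above them. Aurka rose by 0.36 ± 0.07 (adjusted p = 0.00285) with hypoxia in DMSO and fell in MLN4924 (log2 difference -0.56 ± 0.07, adjusted p = 2.31e-04), with an interaction of -0.92 ± 0.10 (adjusted p = 0.00198). Bora, the cofactor with which Aurora A activates Plk1, was the least abundant of these 5. It measured 4.5, 4.67 and 4.44 FPKM in DMSO normoxia, 4.03, 3.69 and 3.79 in DMSO hypoxia, 7.34, 7.1 and 6.41 in MLN4924 normoxia and 4.63, 3.17 and 3.87 in MLN4924 hypoxia. MLN4924 normoxia stood above the other 9 libraries, and the remaining groups lay close together. Bora fell with hypoxia in MLN4924 (log2 difference -0.71 ± 0.11, adjusted p = 9.41e-04), rose with MLN4924 in normoxia by 0.52 ± 0.11 (adjusted p = 0.00762), and had an interaction of -0.51 ± 0.16 (adjusted p = 0.1501).

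Plk4, the kinase that sets centriole number, rose with hypoxia in DMSO and did not pass in MLN4924. It measured 22.2, 20.5 and 24.1 FPKM in DMSO normoxia, 38.03, 27.3 and 30.9 in DMSO hypoxia, 25.9, 23.6 and 26.2 in MLN4924 normoxia and 26.9, 32.1 and 28.9 in MLN4924 hypoxia. DMSO normoxia was below DMSO hypoxia without overlap, and MLN4924 hypoxia was also above MLN4924 normoxia. The log2 differences for hypoxia were 0.50 ± 0.11 (adjusted p = 0.00772) in DMSO and 0.20 ± 0.11 (adjusted p = 0.222) in MLN4924, with an interaction of -0.29 ± 0.16 (adjusted p = 0.453). Nek2, a kinase that separates centrosomes, had differences of the same signs as Aurka: 0.26 ± 0.07 (adjusted p = 0.0194) for hypoxia in DMSO, -0.37 ± 0.07 (adjusted p = 0.00373) in MLN4924 and -0.63 ± 0.10 (adjusted p = 0.0146) for the interaction. Its rise in DMSO was 0.17 (adjusted p = 0.00594) without DMSO hypoxia replicate 1 and was lost without DMSO normoxia replicates 1 or 3 (highest adjusted p = 0.0593).

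The 12 kinesins, motors that sort chromosomes and slide microtubules, were the largest role group. With hypoxia 8 rose and 0 fell in DMSO (13.8% and 19.4% of all tested genes), and 0 rose and 5 fell in MLN4924 (11.7% and 16.5%). At an unadjusted p under 0.05 these were 9 and 0 (18% and 26.1%), then 0 and 7 (16.3% and 22.4%). The interaction was negative past the threshold for 7 (Kif2c, Kif11, Kif14, Kif18a, Kif22, Kif23, Kifc1), against 0.926% of all tested genes, and its median over the 12 was -0.62. With DMSO hypoxia replicate 1 left out, 9 rose in DMSO (14.8%), 10 fell in MLN4924 (24.7%) and 10 had a negative interaction (2.21%). Kif11 (Eg5), the motor that pushes spindle poles apart, measured 52.2, 49.2 and 49.04 FPKM in DMSO normoxia, 62.3, 58.5 and 62.5 in DMSO hypoxia, 59.3, 58.1 and 58.5 in MLN4924 normoxia and 45.9, 46.9 and 46.7 in MLN4924 hypoxia. DMSO hypoxia overlapped MLN4924 normoxia at the top, DMSO normoxia was below both, and MLN4924 hypoxia was below every other library. Kif11 rose by 0.28 ± 0.05 (adjusted p = 0.00124) with hypoxia in DMSO and fell in MLN4924 (log2 difference -0.33 ± 0.05, adjusted p = 5.57e-04), with an interaction of -0.61 ± 0.07 (adjusted p = 0.00198). Kif2c (MCAK), which takes microtubules apart at kinetochores, measured 41.1, 38.4 and 40.8 FPKM in DMSO normoxia, 43.9, 41.9 and 44.1 in DMSO hypoxia, 50.5, 50.7 and 49.2 in MLN4924 normoxia and 34.01, 34.3 and 32.8 in MLN4924 hypoxia. DMSO hypoxia exceeded DMSO normoxia by a small margin, and the 2 MLN4924 groups bracketed both. It fell with hypoxia in MLN4924 (log2 difference -0.56 ± 0.05, adjusted p = 2.1e-05), differed by 0.11 ± 0.05 (adjusted p = 0.1104) in DMSO, and had an interaction of -0.67 ± 0.07 (adjusted p = 0.00178).

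Kif23 (MKLP1), the midzone motor that bundles microtubules with Racgap1, showed the largest rise among the kinesins. It measured 12.6, 11 and 12.9 FPKM in DMSO normoxia, 23.9, 23.6 and 29.4 in DMSO hypoxia, 16.3, 16.3 and 18.8 in MLN4924 normoxia and 18.8, 21.2 and 18.6 in MLN4924 hypoxia. Every DMSO hypoxia library was above all others, DMSO normoxia was lowest, and the MLN4924 groups overlapped between them. Kif23 rose by 1.01 ± 0.10 (adjusted p = 5.26e-05) with hypoxia in DMSO and differed by 0.18 ± 0.10 (adjusted p = 0.224) in MLN4924, so its negative interaction of -0.83 ± 0.15 (adjusted p = 0.01904) came with 2 positive differences. That interaction was lost without DMSO normoxia replicates 1 or 2, MLN4924 normoxia replicate 3 or MLN4924 hypoxia replicates 1 or 3 (highest adjusted p = 0.066). Kifc1 (HSET), a minus-end motor that focuses spindle poles, had the highest FPKM of the kinesins. It measured 50.7, 53.5 and 53.6 FPKM in DMSO normoxia, 75.7, 62.4 and 64.8 in DMSO hypoxia, 61.5, 64.8 and 63.2 in MLN4924 normoxia and 55.4, 52.1 and 53.8 in MLN4924 hypoxia. The DMSO normoxia and MLN4924 hypoxia libraries overlapped and lay below the other 6. It rose by 0.35 ± 0.07 (adjusted p = 0.00332) with hypoxia in DMSO and fell in MLN4924 (log2 difference -0.23 ± 0.07, adjusted p = 0.0316). Its fall in MLN4924 was lost without MLN4924 normoxia replicates 1, 2 or 3 or MLN4924 hypoxia replicates 1, 2 or 3 (highest adjusted p = 0.104), and its interaction of -0.58 ± 0.10 (adjusted p = 0.0158) was lost without DMSO normoxia replicate 1, MLN4924 normoxia replicates 2 or 3 or MLN4924 hypoxia replicate 3 (highest adjusted p = 0.0556).

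Kif20b, a midzone kinesin, was listed at 0 in DMSO hypoxia replicate 1 and measured 15.1 and 12.3 FPKM in replicates 2 and 3. It was 13.9, 14.5 and 12.3 FPKM in DMSO normoxia, 12.9, 14.5 and 13.97 in MLN4924 normoxia and 8.74, 10.9 and 8.99 in MLN4924 hypoxia. The MLN4924 hypoxia libraries were the lowest apart from the one listed at 0. With MLN4924 in hypoxia its log2 difference was 0.81 ± 0.81 (adjusted p = 0.498) over all libraries and -0.48 (adjusted p = 0.0108) without replicate 1, a change of sign. The other 7 kinesins were as follows. Kif4, Kif14, Kif15, Kif18a and Kif22 rose with hypoxia in DMSO, by 0.33 to 0.46, whereas Kif18b and Kif20a had adjusted p = 0.447 and 0.461. For Kif18b the omission of DMSO hypoxia replicate 1 gave 0.24 (adjusted p = 0.00132) for hypoxia in DMSO and -0.22 (adjusted p = 0.00122) in MLN4924, with an interaction of -0.46 (adjusted p = 0.001904). The same omission gave -0.32 (adjusted p = 0.00991) for Kif20a and -0.49 (adjusted p = 0.00371) for Kif20b with hypoxia in MLN4924, and brought the interactions of Kif4 and Kif15 to -0.43 (adjusted p = 0.0266) and -0.86 (adjusted p = 0.0254). The rise of Kif15 was lost without DMSO normoxia replicates 1 or 2 or DMSO hypoxia replicate 3 (highest adjusted p = 0.0772) and that of Kif18a without DMSO normoxia replicate 3 (adjusted p = 0.0623). Kif14, a midbody motor, and Kif22, a chromosome arm motor, fell with hypoxia in MLN4924, with log2 differences of -0.29 ± 0.10 (adjusted p = 0.0477) and -0.27 ± 0.08 (adjusted p = 0.0235). The calls of Kif14 lay close to the threshold: its rise in DMSO was lost without DMSO normoxia replicates 1, 2 or 3 or DMSO hypoxia replicate 3 (highest adjusted p = 0.0649), its fall in MLN4924 was lost without any 1 of 10 libraries, all but DMSO hypoxia replicates 1 and 3 (highest adjusted p = 0.15), and its interaction of -0.63 ± 0.14 (adjusted p = 0.0491) was lost without any 1 of 11 libraries, all but DMSO hypoxia replicate 1 (highest adjusted p = 0.1296). The fall of Kif22 was lost without MLN4924 normoxia replicate 2 or MLN4924 hypoxia replicates 1, 2 or 3 (highest adjusted p = 0.0939) and its interaction of -0.64 ± 0.11 (adjusted p = 0.0155) without MLN4924 hypoxia replicate 3 (adjusted p = 0.05199). Kif18a, which shortens kinetochore microtubules, had an interaction of -0.72 ± 0.15 (adjusted p = 0.0436), lost without any 1 of 10 libraries, all but DMSO hypoxia replicate 1 and MLN4924 hypoxia replicate 3 (highest adjusted p = 0.123).

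Among the 9 spindle assembly and microtubule-binding genes, 5 rose with hypoxia in DMSO (Tpx2, Ckap2, Ckap2l, Nusap1, Tacc3), 2 fell with hypoxia in MLN4924 (Ckap2, Hmmr), and 5 had a negative interaction (Ckap2, Ckap2l, Nusap1, Hmmr, Tacc3). With DMSO hypoxia replicate 1 left out they numbered 7, 4 and 7. Tpx2, which activates Aurora A on the spindle, measured 28.04, 27.4 and 24.4 FPKM in DMSO normoxia, 50.4, 41.4 and 48.6 in DMSO hypoxia, 32.96, 39.1 and 30.99 in MLN4924 normoxia and 40.9, 46.7 and 40.2 in MLN4924 hypoxia. DMSO normoxia was below all other libraries, and the 2 hypoxia groups overlapped at the top. It rose by 0.79 ± 0.11 (adjusted p = 3.30e-04) with hypoxia in DMSO, and in MLN4924 the difference was 0.31 ± 0.11 (adjusted p = 0.0538), of the same sign. Ckap2, a microtubule stabiliser of the spindle poles, measured 27.3, 23.3 and 27.6 FPKM in DMSO normoxia, 36.8, 32.7 and 31.5 in DMSO hypoxia, 36.3, 37.5 and 36.5 in MLN4924 normoxia and 26.7, 25.3 and 24.3 in MLN4924 hypoxia. MLN4924 normoxia overlapped DMSO hypoxia, and MLN4924 hypoxia overlapped DMSO normoxia below them. Its log2 differences for hypoxia were 0.36 ± 0.08 (adjusted p = 0.00617) in DMSO and -0.52 ± 0.08 (adjusted p = 8.71e-04) in MLN4924, with an interaction of -0.87 ± 0.11 (adjusted p = 0.00481).

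Tacc3, which crosslinks kinetochore fibres with clathrin and Ckap5, was the most abundant of the 9 by FPKM. It measured 54.9, 57.02 and 51.4 FPKM in DMSO normoxia, 82.6, 68.4 and 67.9 in DMSO hypoxia, 71.8, 70.4 and 71.1 in MLN4924 normoxia and 62.8, 61.5 and 63 in MLN4924 hypoxia. No DMSO normoxia library reached any other library, and MLN4924 hypoxia lay between it and the remaining groups. Tacc3 rose by 0.41 ± 0.07 (adjusted p = 0.00186) with hypoxia in DMSO and differed by -0.18 ± 0.07 (adjusted p = 0.0881) in MLN4924, or -0.18 (adjusted p = 0.00345) without DMSO hypoxia replicate 1. Its interaction of -0.60 ± 0.10 (adjusted p = 0.0189) was lost without any 1 of 8 libraries, all but DMSO normoxia replicate 2 and DMSO hypoxia replicates 1, 2 and 3 (highest adjusted p = 0.0633). Ckap5 (ch-TOG), a microtubule polymerase, depended on the library that stood apart. It measured 36.8, 35.4 and 36.7 FPKM in DMSO normoxia, 9.16, 50.5 and 60.3 in DMSO hypoxia, 43.6, 42.6 and 43.5 in MLN4924 normoxia and 44.1, 45.7 and 43.3 in MLN4924 hypoxia. DMSO hypoxia replicate 1 was the lowest of the 12 and replicates 2 and 3 were the highest. Its log2 difference for hypoxia in DMSO was -0.23 ± 0.52 (adjusted p = 0.761) with that library and 0.59 (adjusted p = 7.83e-05) without it, and its interaction moved from 0.27 ± 0.73 (adjusted p = 0.887) to -0.56 (adjusted p = 0.00575). With MLN4924 in hypoxia it moved from 0.51 ± 0.52 (adjusted p = 0.502) to -0.31 (adjusted p = 0.004895).

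Hmmr, a centrosome and spindle protein, did not pass for hypoxia in DMSO, at 0.10 ± 0.06 (adjusted p = 0.243), and fell in MLN4924 (log2 difference -0.53 ± 0.06, adjusted p = 2.31e-04). Nusap1 and Ckap2l showed the other arrangement. They rose by 0.53 ± 0.07 (adjusted p = 3.47e-04) and 0.55 ± 0.07 (adjusted p = 2.02e-04) with hypoxia in DMSO and differed by -0.11 and -0.09 in MLN4924 (adjusted p = 0.308 and 0.402). The interactions of all 3 passed in every alternative. Dlgap5 (HURP) and Aspm, which bind kinetochore fibres and spindle poles, passed in no contrast over all libraries. Aspm passed in all 5 without DMSO hypoxia replicate 1: its difference for hypoxia was 0.49 (adjusted p = 1.38e-04) in DMSO, against 0.12 over all libraries, and -0.17 (adjusted p = 0.0223) in MLN4924, and its interaction was -0.67 (adjusted p = 0.00167), against -0.30.

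Of the 6 midzone and cytokinesis genes, 3 rose with hypoxia in DMSO (Ect2, Anln, Cep55), against 13.8% of all tested genes. Racgap1 alone fell with hypoxia in MLN4924, which is near the 16.5% of all tested genes that fell. A negative interaction was found for 2 (Racgap1, Anln), against 0.926%. With DMSO hypoxia replicate 1 left out the 3 counts were 4, 1 and 3 (14.8%, 24.7% and 2.21% of all tested genes). The rise of Ect2, which activates RhoA at the furrow, was lost without DMSO normoxia replicates 1 or 2 (highest adjusted p = 0.06298). Racgap1, the centralspindlin partner of Kif23 and the most abundant of the 6 by FPKM, measured 120.5, 119 and 115 FPKM in DMSO normoxia, 129, 120.2 and 118 in DMSO hypoxia, 128, 132 and 123 in MLN4924 normoxia and 102, 88.3 and 94.98 in MLN4924 hypoxia. The MLN4924 hypoxia libraries were below the other 9, which ran from 115 to 132 FPKM. MLN4924 normoxia was above DMSO normoxia without overlap, and DMSO hypoxia overlapped both. It fell (log2 difference -0.43 ± 0.06, adjusted p = 5.97e-04) with hypoxia in MLN4924, while its difference in DMSO was 0.05 ± 0.06 (adjusted p = 0.584). The interaction of -0.47 ± 0.09 (adjusted p = 0.0247) was lost without any 1 of 8 libraries, all but DMSO hypoxia replicates 1, 2 and 3 and MLN4924 hypoxia replicate 1 (highest adjusted p = 0.0757). Cep55, the midbody protein that brings the abscission machinery, showed the largest rise of all 52. It measured 12.3, 16.7 and 14.9 FPKM in DMSO normoxia, 47.4, 28.7 and 35.3 in DMSO hypoxia, 24.3, 17.3 and 28.7 in MLN4924 normoxia and 23.7, 33.1 and 23.6 in MLN4924 hypoxia. DMSO hypoxia was above DMSO normoxia without overlap but spread widely, and the MLN4924 groups overlapped each other. Cep55 rose by 1.26 ± 0.22 (adjusted p = 0.00172) with hypoxia in DMSO and differed by 0.20 ± 0.22 (adjusted p = 0.562) in MLN4924. Its interaction, -1.07 ± 0.31 (adjusted p = 0.141), had the lowest value of the 52 and did not pass. Anln, the actin and septin binding scaffold of the cleavage furrow, rose by 0.66 ± 0.07 (adjusted p = 8.39e-05) in DMSO with an interaction of -0.68 ± 0.10 (adjusted p = 0.0101). Cit, a midbody kinase, was listed at 0 in DMSO hypoxia replicate 1 and lay between 0.70 and 3.88 FPKM in the others, near the filter. Prc1, which crosslinks the midzone microtubules, passed in no contrast over all libraries. Without DMSO hypoxia replicate 1 it differed by 0.30 (adjusted p = 0.0395) for hypoxia in DMSO and by -0.43 (adjusted p = 0.00888) for MLN4924 in hypoxia, and the interaction of Ect2 was -0.66 (adjusted p = 0.0131).

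Neither of the 2 genes of sister separation passed in any contrast over all libraries (at an unadjusted p under 0.05, 1 was lower with hypoxia in DMSO and 0 had an interaction). Securin (Pttg1), the inhibitor of separase, measured 44.8, 51.1 and 44.4 FPKM in DMSO normoxia, 41.7, 26.2 and 29.6 in DMSO hypoxia, 28.1, 38.2 and 40.5 in MLN4924 normoxia and 43.8, 34.95 and 28.7 in MLN4924 hypoxia. DMSO hypoxia was below DMSO normoxia without overlap, the reverse of most of the set, and the MLN4924 groups overlapped. The log2 difference was -0.54 ± 0.20 (adjusted p = 0.0601) for hypoxia in DMSO and 0.0044 ± 0.20 (adjusted p = 0.989) in MLN4924. Without DMSO hypoxia replicate 1, in which it was highest of its group, the first was -0.72 (adjusted p = 0.0112). Separase (Espl1), the protease that cuts cohesin, measured 15.8, 9.73 and 11.7 FPKM in DMSO normoxia, 4.6, 12.97 and 10.6 in DMSO hypoxia, 19.8, 18.7 and 19.4 in MLN4924 normoxia and 13.8, 10.7 and 12.9 in MLN4924 hypoxia. MLN4924 normoxia was above all other libraries, while the remaining groups overlapped. Its differences for hypoxia were -0.44 ± 0.29 (adjusted p = 0.262) in DMSO and -0.60 ± 0.29 (adjusted p = 0.155) in MLN4924, and with DMSO hypoxia replicate 1 left out they were -0.05 (adjusted p = 0.849) and -0.60 (adjusted p = 0.0112).

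In the 7 genes of chromosome structure, 2 rose with hypoxia in DMSO (Top2a, Ncaph), against 13.8% of all tested genes. None passed with hypoxia in MLN4924, where 11.7% of all tested genes rose and 16.5% fell. None had an interaction past the threshold (0.958% positive and 0.926% negative over all tested genes). Their median for hypoxia in MLN4924 was 0.12 and that for the interaction -0.16, or -0.36 without DMSO hypoxia replicate 1. At an unadjusted p under 0.05, none of the 7 differed with hypoxia in MLN4924 (16.3% higher and 22.4% lower over all tested genes). At that threshold 2 had a negative interaction (6.92%). When DMSO hypoxia replicate 1 was omitted, 6 of the 7 rose with hypoxia in DMSO (14.8%), 1 rose in MLN4924 (17.9%) and 2 had a negative interaction (2.21%). Topoisomerase II alpha (Top2a), which untangles chromosomes, measured 97, 98.8 and 104 FPKM in DMSO normoxia, 126, 142 and 162 in DMSO hypoxia, 123, 115 and 118 in MLN4924 normoxia and 123, 140.0 and 122 in MLN4924 hypoxia. The DMSO normoxia libraries were the lowest group. Top2a rose by 0.51 ± 0.09 (adjusted p = 0.00152) with hypoxia in DMSO, and in MLN4924 the difference was 0.11 ± 0.09 (adjusted p = 0.384). Ncaph, a condensin I subunit, measured 46.5, 43.5 and 46.4 FPKM in DMSO normoxia, 63.1, 54 and 60.8 in DMSO hypoxia, 44.6, 43.9 and 42.97 in MLN4924 normoxia and 37.04, 44.6 and 42.4 in MLN4924 hypoxia. DMSO hypoxia was above the other 9 libraries, which overlapped. It rose by 0.37 ± 0.08 (adjusted p = 0.00446) with hypoxia in DMSO and fell with MLN4924 in hypoxia (log2 difference -0.51 ± 0.08, adjusted p = 0.001001). Smc4, a core condensin subunit, measured 89.3, 86.5 and 88.7 FPKM in DMSO normoxia, 66.9, 86.4 and 108 in DMSO hypoxia, 85.4, 82.1 and 85.1 in MLN4924 normoxia and 64.7, 79.6 and 72.4 in MLN4924 hypoxia. DMSO hypoxia ran from the second lowest to the highest of the 12, and the gene passed in no contrast over all libraries. For MLN4924 in hypoxia its difference was -0.25 ± 0.14 (adjusted p = 0.226) with replicate 1 and -0.42 (adjusted p = 0.00863) without it.

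Mki67, the proliferation marker Ki-67 that coats mitotic chromosomes, was listed at 0 in DMSO hypoxia replicate 1 and measured 88.01 and 84.5 FPKM in replicates 2 and 3. It was 68.9, 59.4 and 61.2 FPKM in DMSO normoxia, 77.7, 63.9 and 71.2 in MLN4924 normoxia and 71.9, 80.2 and 79.6 in MLN4924 hypoxia. Replicates 2 and 3 of DMSO hypoxia were the highest of the 12. The fit with all libraries gave a log2 difference of -1.70 ± 1.34 (adjusted p = 0.354) for hypoxia in DMSO, which rests on the value listed at 0, and without that library it was 0.45 (adjusted p = 0.00305). The other condensin genes Ncapd2, Ncapg and Smc2 passed in no contrast over all libraries, and without DMSO hypoxia replicate 1 they differed by 0.43 (adjusted p = 6.56e-06), 0.51 (adjusted p = 0.0196) and 0.40 (adjusted p = 0.00411) for hypoxia in DMSO. That omission also gave interactions of -0.31 (adjusted p = 0.00312) for Ncapd2 and -0.49 (adjusted p = 0.0196) for Top2a. For Ncapd2 with MLN4924 in hypoxia, the difference was 0.05 ± 0.10 (adjusted p = 0.765) with replicate 1 and -0.10 (adjusted p = 0.03203) without it.

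The 2 transcription factors of the set were higher with MLN4924 at normal oxygen, and their 2 hypoxia effects had no interaction past the threshold. Mybl2 (B-MYB), which joins MuvB to start the transcription of G2 and mitotic genes, measured 12.1, 14.2 and 12.8 FPKM in DMSO normoxia, 14.2, 15.9 and 15.99 in DMSO hypoxia, 21.2, 19.9 and 19.6 in MLN4924 normoxia and 26.7, 27.96 and 26.3 in MLN4924 hypoxia. The groups rank from DMSO normoxia through DMSO hypoxia and MLN4924 normoxia to MLN4924 hypoxia without overlap, but the first 2 almost touch, at 14.2 and 14.21 FPKM. Mybl2 rose with hypoxia in MLN4924 by 0.40 ± 0.07 (adjusted p = 0.00265), the 1 gene of the 52 to do so, and it was higher with MLN4924 in normoxia, by 0.60 ± 0.07 (adjusted p = 2.97e-04), and in hypoxia, by 0.77 ± 0.07 (adjusted p = 6.08e-05). Its rise with hypoxia in DMSO, 0.22 ± 0.07 (adjusted p = 0.0392), was lost without any 1 of 9 libraries, all but DMSO normoxia replicate 2, DMSO hypoxia replicate 1 and MLN4924 normoxia replicate 1 (highest adjusted p = 0.138). Foxm1, which acts with B-MYB on the same promoters, measured 43.7, 44.5 and 42.8 FPKM in DMSO normoxia, 36.7, 52.96 and 52.5 in DMSO hypoxia, 63.2, 64.1 and 64.2 in MLN4924 normoxia and 58.3, 52.5 and 56.9 in MLN4924 hypoxia. MLN4924 normoxia was the highest group, above every other library, and DMSO hypoxia was split, with replicate 1 lowest of the 12. Foxm1 was higher with MLN4924 in normoxia by 0.54 ± 0.12 (adjusted p = 0.00873), and its hypoxia effects were 0.10 ± 0.12 (adjusted p = 0.555) in DMSO and -0.19 ± 0.12 (adjusted p = 0.263) in MLN4924. With DMSO hypoxia replicate 1 left out, these were 0.27 (adjusted p = 0.00124) and -0.19 (adjusted p = 0.00387), and the interaction was -0.46 (adjusted p = 0.00279).

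Neighbouring parts of the cell cycle were read from 6 further lists of 87 genes, all of them in the table and tested. The 21 genes of the chromosomal passenger complex, kinetochore and spindle checkpoint had these counts: 13 rose and 1 fell with hypoxia in DMSO, 0 rose and 5 fell in MLN4924, and 5 had a negative interaction and 0 a positive one, with medians of 0.35, -0.15 and -0.45. Over all tested genes 13.8% rose and 19.4% fell in DMSO, 11.7% and 16.5% in MLN4924, and 0.926% and 0.958% had a negative and a positive interaction. At an unadjusted p under 0.05, 1 of the 21 was higher and 8 were lower with hypoxia in MLN4924 (16.3% and 22.4%). At that threshold 16 had a negative interaction and 0 a positive one (6.92% and 7.68%). Without DMSO hypoxia replicate 1, 11 fell in MLN4924 (24.7%) and 13 had a negative interaction (2.21%). Bub1, the kinase of the spindle checkpoint, measured 13.4, 13.8 and 11.97 FPKM in DMSO normoxia, 24.9, 23.3 and 22.6 in DMSO hypoxia, 20.1, 17.7 and 18.9 in MLN4924 normoxia and 17.2, 19.9 and 17.3 in MLN4924 hypoxia. DMSO hypoxia was above every other library and DMSO normoxia was below every other library. Its interaction was -0.87 ± 0.12 (adjusted p = 0.006202). Sgo2a, a protector of centromeric cohesion, rose with hypoxia in DMSO by 0.35 ± 0.08 (adjusted p = 0.00559) and fell in MLN4924 (log2 difference -0.36 ± 0.08, adjusted p = 0.00499). Ndc80, the microtubule-binding core of the kinetochore, rose in DMSO by 0.60 ± 0.08 (adjusted p = 3.12e-04) and differed by 0.06 ± 0.08 (adjusted p = 0.653) in MLN4924, and its interaction of -0.54 ± 0.11 (adjusted p = 0.0407) was lost without any 1 of 10 libraries, all but DMSO hypoxia replicates 1 and 2 (highest adjusted p = 0.113).

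Of the 16 genes of the anaphase-promoting complex and its regulators, 5 rose and 1 fell with hypoxia in DMSO (13.8% and 19.4% of all tested genes). In MLN4924, 2 rose and 4 fell (11.7% and 16.5%), and 2 had a negative interaction (0.926%). Those 2 were Cdc20 and Ube2c. Cdc20, the mitotic activator of the complex, measured 102, 102 and 97.2 FPKM in DMSO normoxia, 108, 102 and 103 in DMSO hypoxia, 127, 129 and 128 in MLN4924 normoxia and 74.2, 66.6 and 62.97 in MLN4924 hypoxia. MLN4924 normoxia was highest and MLN4924 hypoxia lowest, and no groups overlapped: between those 2, DMSO hypoxia began at 102.0 FPKM, just above the 101.63 FPKM that DMSO normoxia reached. It fell with hypoxia in MLN4924 (log2 difference -0.91 ± 0.06, adjusted p = 4.14e-06) and its interaction was -0.97 ± 0.08 (adjusted p = 0.00143). Ube2c, the ubiquitin-conjugating enzyme of the complex, had an interaction of -0.89 ± 0.14 (adjusted p = 0.0104). A core subunit, Anapc5, rose in both, by 0.37 ± 0.06 (adjusted p = 0.00139) in DMSO and 0.37 ± 0.06 (adjusted p = 0.00174) in MLN4924, with an interaction of -0.0024 ± 0.09 (adjusted p = 0.992). The complex inhibitor Fbxo5 (EMI1) rose in DMSO, by 0.65 ± 0.10 (adjusted p = 5.93e-04).

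Among 24 genes of S phase, hypoxia in DMSO came with 6 that rose and 2 that fell (13.8% and 19.4% of all tested genes). In MLN4924, 14 rose and 0 fell (11.7% and 16.5%), and the interaction was positive for 3 and negative for 0 (0.958% and 0.926%). At an unadjusted p under 0.05 the last 2 pairs were 16 and 1 (16.3% and 22.4%), then 8 and 1 (7.68% and 6.92%). Without DMSO hypoxia replicate 1 the positive interactions numbered 7 (3.3%). The median hypoxia effect was 0.11 in DMSO, or 0.065 without DMSO hypoxia replicate 1, and 0.26 in MLN4924. Mcm2, a subunit of the replicative helicase, measured 126, 129 and 129 FPKM in DMSO normoxia, 92.2, 112 and 108 in DMSO hypoxia, 106, 108 and 110.1 in MLN4924 normoxia and 124, 122 and 122 in MLN4924 hypoxia. DMSO hypoxia was below DMSO normoxia, and MLN4924 hypoxia was above MLN4924 normoxia, both without overlap. It fell with hypoxia in DMSO (log2 difference -0.30 ± 0.06, adjusted p = 0.00491), differed by 0.19 ± 0.06 (adjusted p = 0.0545) in MLN4924, and had an interaction of 0.49 ± 0.09 (adjusted p = 0.0267), lost without any 1 of 9 libraries, all but DMSO hypoxia replicates 1, 2 and 3 (highest adjusted p = 0.0813). Mcm4, of the same helicase, had an interaction of 0.30 ± 0.06 (adjusted p = 0.0349), lost without any 1 of 10 libraries, all but DMSO hypoxia replicates 1 and 2 (highest adjusted p = 0.108). Cdk2, the kinase of S phase entry, rose in both, by 0.67 ± 0.06 (adjusted p = 2.11e-05) in DMSO and 0.97 ± 0.06 (adjusted p = 2.32e-06) in MLN4924, as did Rrm2, the ribonucleotide reductase subunit, by 0.61 ± 0.06 (adjusted p = 5.35e-05) and 0.29 ± 0.06 (adjusted p = 0.00589).

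Among the 7 CDK inhibitors, 5 rose and 0 fell with hypoxia in DMSO (13.8% and 19.4% of all tested genes). In MLN4924, 2 rose and 0 fell (11.7% and 16.5%), and 1 had a negative interaction (0.926%). At an unadjusted p under 0.05 the first 2 pairs were 5 and 0 (18% and 26.1%), then 3 and 0 (16.3% and 22.4%). Without DMSO hypoxia replicate 1, 5 rose and 1 fell in MLN4924 (17.9% and 24.7%). Cdkn1a (p21), the inhibitor induced by p53 and other stress pathways, measured 16.7, 18.3 and 15.9 FPKM in DMSO normoxia, 171, 155 and 157 in DMSO hypoxia, 33.1, 33.6 and 30.9 in MLN4924 normoxia and 138, 134 and 135 in MLN4924 hypoxia. The 4 groups did not overlap, with both hypoxia groups far above both normoxia groups. It rose by 3.18 ± 0.06 (adjusted p = 1.18e-09) with hypoxia in DMSO and by 2.03 ± 0.06 (adjusted p = 2.16e-08) in MLN4924, with an interaction of -1.15 ± 0.09 (adjusted p = 8.52e-04). Cdkn1b (p27) rose by 0.92 ± 0.10 (adjusted p = 6.25e-05) in DMSO and 0.63 ± 0.10 (adjusted p = 8.91e-04) in MLN4924. Cdkn2d (p19) rose in DMSO, by 1.06 ± 0.12 (adjusted p = 1.34e-04), and differed by 0.27 ± 0.12 (adjusted p = 0.142) in MLN4924, with an interaction of -0.79 ± 0.17 (adjusted p = 0.0535).

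A list of 8 genes covers CDK1 restraint and mitotic exit and also holds the activating phosphatase Cdc25a. Of these, 2 rose and 1 fell with hypoxia in DMSO, against 13.8% and 19.4% of all tested genes. In MLN4924, 1 rose and 2 fell, against 11.7% and 16.5%. For the interaction, 0 passed the threshold (1, negative, at an unadjusted p under 0.05, against 6.92%). Mastl (Greatwall), which blocks the phosphatase that opposes CDK1, rose in DMSO by 0.34 ± 0.08 (adjusted p = 0.00835). Cdc25a, the phosphatase shared by S phase and mitosis, fell with hypoxia both in DMSO (log2 difference -0.41 ± 0.08, adjusted p = 0.00236), and in MLN4924 (log2 difference -0.26 ± 0.08, adjusted p = 0.0274); the second call was lost without MLN4924 normoxia replicates 1, 2 or 3 or MLN4924 hypoxia replicates 1 or 2 (highest adjusted p = 0.103). Ppp2r2a, a regulatory subunit of that opposing phosphatase, fell in MLN4924 (log2 difference -0.32 ± 0.09, adjusted p = 0.0218), a call lost without MLN4924 normoxia replicates 2 or 3 or MLN4924 hypoxia replicates 2 or 3 (highest adjusted p = 0.0774). The 11 MuvB and DREAM genes are subunits of the complexes that bind the CHR. Of these, 0 rose and 0 fell with hypoxia in DMSO, against 13.8% and 19.4% of all tested genes. In MLN4924, 0 rose and 1 (E2f5) fell, against 11.7% and 16.5%, and 0 had an interaction past the threshold (0.958% positive, 0.926% negative). Without DMSO hypoxia replicate 1, 0 rose and 2 fell in DMSO (14.8% and 23.9%). The same omission gave 1 that rose and 2 that fell in MLN4924 (17.9% and 24.7%), and 1 negative interaction (2.21%). The difference of these counts from the shares was not tested. In limma at an unadjusted p under 0.05, 1 of these 11 was higher and 1 lower with hypoxia in DMSO (18% and 26.1%). At that threshold 2 had a negative interaction (6.92%). E2f5, a repressor E2F of the DREAM complex, fell (log2 difference -0.47 ± 0.12, adjusted p = 0.0146), a call lost without MLN4924 normoxia replicates 1 or 2 or MLN4924 hypoxia replicates 1 or 3 (highest adjusted p = 0.0524). For Lin9, Lin52 and Tfdp1 the interactions were -0.48 ± 0.17 (adjusted p = 0.218), -0.06 ± 0.23 (adjusted p = 0.916) and 0.06 ± 0.18 (adjusted p = 0.905).

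**Figure D5:**
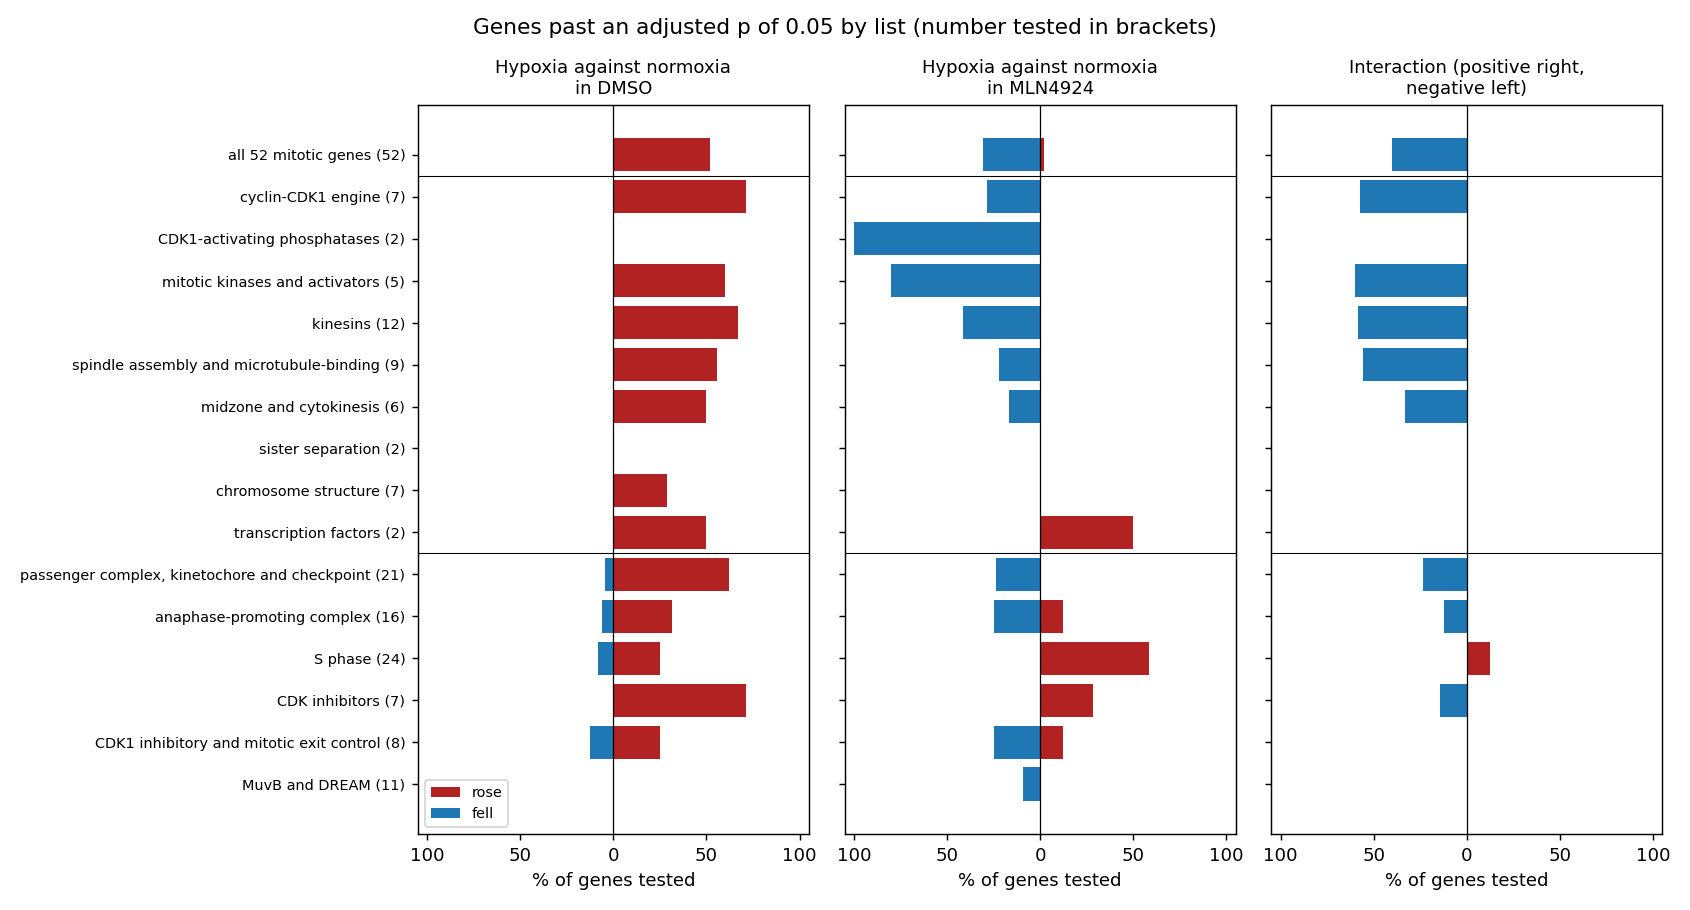
Bars give the share (%) of the tested genes of each list that rose (right, red) or fell (left, blue) at an adjusted p under 0.05, for hypoxia in DMSO, hypoxia in MLN4924 and the interaction; the 9 role groups of the 52 genes stand above the lower line and the 6 other lists below it. Engine, kinase and kinesin genes point right in the first panel and left in the others, while S phase genes point mostly right in the second.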

How the data were processed

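RNA abundance was measured by paired-end RNA sequencing (NEBNext Ultra libraries on a NovaSeq, per the labels) in 12 libraries of GC-2 cells, 3 in each of 4 groups. The titles give GC-2 for every sample, whereas the cell type label has a different number in each; all were taken as GC-2. Values were FPKM computed and deposited by the authors, rounded to 2 decimals, with 1 column per library. The submitters' processing notes name fastp, STAR, RSEM 1.3.3 and genome build mm39; the annotation, the strandedness and any filter were not given in the sources used here. FPKM hold no read counts, so depth was unknown, no counting interval could be given, and overlapping or antisense transcripts could not be separated, and only each library's FPKM total and its distance from its replicates are given instead. A failed estimate and an absent transcript are both listed as 0.

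Of 24770 genes, 12311 reached 1 FPKM in 3 or more libraries and were tested. limma 3.58.1 (R 4.3.3) was run on log2(FPKM + 1), with a mean for each group. Each gene had 1 variance, shared by the 4 groups and moderated toward an intensity trend. The 5 contrasts were hypoxia within DMSO and within MLN4924, MLN4924 within normoxia and within hypoxia, and their interaction. Tests were two-sided; Benjamini-Hochberg adjustment ran over all tested genes of a contrast, and the threshold was 0.05. Fold changes are on the log2(FPKM + 1) scale, which understates those of low genes. The scripts were tested on simulated data with known changes. The simulated noise was normal, independent between genes and sized without DMSO hypoxia replicate 1, so the simulation held no library of that kind. No permutation test was used, since groups of 3 are too small for one to pass.

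The members, the role groups, the other lists and the tests were chosen with earlier results of these data known. Values in every library are given for the 6 members with the smallest interaction p, the 4 highest and 4 lowest fold changes of each pairwise contrast, and the member with the highest mean in each role; of each other list, for some of the 2 genes with the smallest interaction p and the 2 with the smallest p for hypoxia in DMSO, with the rest named by fold change. Cell type markers were read from 5 lists (germ cells, Sertoli cells, Leydig cells, fibroblast and peritubular cells, macrophages and leukocytes). Of the Sertoli list, 3 of 4 matched genes reached 1 FPKM in 3 libraries, of the Leydig list 0 of 3, and of the macrophage list 1 of 2 (Cd68). Transcript length is that of the longest GENCODE M21 transcript by symbol, found for 97.5% of tested genes and all 52 members. Promoters came from RefSeq windows on GRCm38.p6, matched by symbol; the last 40 bases of 33 of the 44 windows were also found in an annotated transcript of the gene. The replicate numbers did not pair libraries across groups. The alternatives were a pseudocount of 0.1, no filter, median-of-ratios scaling, the replicate number as a block, array weights, removal of the transcript length trend (loess, span 0.5), the compared groups fitted alone, and each library left out in turn.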

Additional observations from a re-analysis of the deposited data

Results flagged for a closer look

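For 21 of the 52 mitotic genes the effect of hypoxia differed between DMSO and MLN4924 by the interaction term in limma (adjusted p under 0.05 over all tested genes, 3 libraries a group). All 21 interactions were negative, meaning a lower or more negative hypoxia effect with MLN4924. Past -0.80 (log2) were Cks2 at -0.995, Aurka at -0.92, Ckap2 at -0.87 and Kif23 at -0.83. Between -0.80 and -0.65 came Ccnb1 at -0.79, Ccnb2 at -0.77, Kif18a at -0.72, Anln at -0.68, Plk1 and Kif2c both at -0.67 and Ccna2 at -0.65. Nearer to 0 were Kif22, Nusap1 and Ckap2l at -0.64, Nek2, Kif14 and Hmmr at -0.63, Kif11 at -0.61, Tacc3 at -0.60, Kifc1 at -0.58 and Racgap1 at -0.47. Of the 21, only 11 passed in every alternative. The calls of Cks2 and Kif18a were each lost without any 1 of 10 libraries, and that of Kif14 without any 1 of 11.

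Among the genes named from the other cell cycle lists, the same test separated the 2 hypoxia effects for Cdkn1a (-1.15), Cdc20 (-0.97), Ube2c (-0.89), Bub1 (-0.87), Sgo2a (-0.71) and Ndc80 (-0.54). The call of Ndc80 was lost without any 1 of 10 libraries, all but DMSO hypoxia replicates 1 and 2 (highest adjusted p = 0.113). The interaction was positive for the helicase genes Mcm2 (0.49) and Mcm4 (0.30). These calls were lost without any 1 of 9 libraries for Mcm2 and any 1 of 10 for Mcm4 (highest adjusted p in limma = 0.0813 and 0.108).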

How the results depend on the processing

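The medians of the 52 genes kept their sign in all 5 contrasts under every alternative: they ran from 0.24 to 0.37 for hypoxia in DMSO, -0.23 to -0.17 for hypoxia in MLN4924, 0.22 to 0.28 for MLN4924 in normoxia, -0.33 to -0.24 for MLN4924 in hypoxia and -0.60 to -0.51 for the interaction. Of the calls, 16 of 27, 13 of 17, 12 of 20, 18 of 26 and 11 of 21 were kept under all alternatives, in that order. With array weights, which gave DMSO hypoxia replicate 1 a weight of 0.0736, 1 gene fell with hypoxia in DMSO, 3 rose and 29 fell with hypoxia in MLN4924, 36 had a negative interaction and 19 passed in opposite directions. Calls rose over the whole table too. Of 12311 tested genes, 3221 fell with hypoxia in DMSO, against 2393 in the main fit. With hypoxia in MLN4924, 2236 rose and 3103 fell, against 1439 and 2034. Negative interactions numbered 365, against 114, and 0.772% passed in opposite directions, against 0.309%. With the length trend removed, 1 fell with hypoxia in DMSO (2152 of 12003 tested genes) and 4 rose with hypoxia in MLN4924 (1928). Median-of-ratios scaling gave 2 that rose with hypoxia in MLN4924 (1727 of 12311 tested genes). For hypoxia in MLN4924 the compared groups alone gave 3 that rose and 27 that fell (2096 and 2884). Over all tested genes, that fit cut calls for hypoxia in DMSO to 944 up and 1280 down, against 1700 and 2393. It cut those for MLN4924 in hypoxia to 621 and 643, against 1498 and 1639. For MLN4924 in normoxia it gave 1928 and 2140, against 1149 and 1318. The DMSO rises of Cks2, Plk4 and Ckap2 were kept in 18 of 19 alternatives. Their highest adjusted p in limma was 0.0556, 0.0530 and 0.0602. Without the filter 5 passed in opposite directions, against 0.0929% of 24770 genes. Leaving out 1 library at a time, the counts ranged from 20 to 36 that rose and 0 to 1 that fell with hypoxia in DMSO, from 1 to 3 that rose and 13 to 27 that fell with hypoxia in MLN4924, from 13 to 29 that were higher with MLN4924 in normoxia and 22 to 34 that were lower in hypoxia, from 12 to 33 negative interactions and from 4 to 15 genes in opposite directions. Over all 12311 tested genes the same omissions gave 1278 to 1837 and 1739 to 2948 for hypoxia in DMSO. For hypoxia in MLN4924 they gave 1062 to 2199 and 1461 to 3043. With MLN4924, 773 to 1975 were higher in normoxia and 1098 to 1927 lower in hypoxia. Negative interactions numbered 48 to 272, and 0.171% to 0.707% passed in opposite directions. The causes of these moves were not tested.

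Fold changes of 4 genes changed sign to a called value, all tied to DMSO hypoxia replicate 1. Without it, Ckap5 went to 0.59 (adjusted p = 7.83e-05) for hypoxia in DMSO, -0.31 (adjusted p = 0.004895) for MLN4924 in hypoxia and -0.56 (adjusted p = 0.00575) for the interaction, Mki67 to 0.45 (adjusted p = 0.00305) for hypoxia in DMSO, and Kif20b and Ncapd2 to -0.48 (adjusted p = 0.0108) and -0.10 (adjusted p = 0.03203) for MLN4924 in hypoxia. Over the 12 omissions these ran from -0.70 to 0.59, -0.31 to 0.99 and -0.56 to 0.74 for Ckap5, from -2.79 to 0.45 for Mki67, from -0.48 to 1.53 for Kif20b and from -0.10 to 0.14 for Ncapd2. With array weights, Ckap5 went to 0.58 (adjusted p = 0.0209) for hypoxia in DMSO. In the whole table, hypoxia in DMSO raised 1700 genes and lowered 2393, and after median-of-ratios scaling it raised 2085 and lowered 1950, while the median of all genes moved by less than 0.1. Libraries with the same replicate number in different groups did not deviate together (correlations of -0.0697 to 0.0993 over 18 pairs), so the numbers are taken as names. With the replicate number as a block, 24 genes rose with hypoxia in DMSO, 15 fell and 1 rose with hypoxia in MLN4924, 16 were higher with MLN4924 in normoxia, 23 were lower and 1 higher with MLN4924 in hypoxia, 19 had a negative interaction and 6 passed in opposite directions. Over all 12311 tested genes the block gave 1569, 1861 and 1309, 983, 1463 and 1337, 76 and 0.252%, in that order. FPKM carry no depth, so low genes such as Cit and Bora have no counting limit.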
